A study of Homo sapiens with 6 samples.

Results

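The genes described here are 10 noncoding host genes of small nucleolar RNAs (snoRNAs): GAS5, SNHG1, SNHG3, SNHG5, SNHG6, SNHG7, SNHG8, SNHG12, SNHG15 and SNHG16. They were taken by symbol, through the Ensembl gene identifiers of the deposited values, and all 10 were found among 25969 genes. Their levels were measured by RNA sequencing in 3 libraries of human prostate cancer cells that had received a vector for overexpression of VIM-AS1, a noncoding RNA antisense to the vimentin gene, and in 3 libraries of the same labelled cells that had received the pcDNA3.1 vector, a plasmid used as the control. Both groups carry the label of 1 cell line, LNCaP, an androgen-responsive line from a lymph node metastasis. The labels give no time after transfection. They do not say either that the libraries are from separate cultures, so the spread behind the p-values may be purely technical.

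A snoRNA host gene is transcribed by RNA polymerase II and spliced, and the snoRNAs are cut out of its introns. Box C/D snoRNAs guide 2′-O-methylation of ribosomal RNA and box H/ACA snoRNAs guide pseudouridylation, while a few of either class act in cleavage of the ribosomal RNA precursor. The spliced exons carry no long reading frame, are bound by ribosomes and are degraded by nonsense-mediated decay, the pathway that removes messages with an early stop codon, so that the level of a host RNA reflects decay as well as transcription. Many hosts, GAS5 among them, belong to the terminal oligopyrimidine (TOP) class, whose messages start with a run of pyrimidines and are controlled in translation through mTORC1 and LARP1. Several SNHG transcripts have also been studied in tumour cells as RNAs in their own right.

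The libraries held 14762893 to 19889745 reads, recovered from the deposited values, and the member genes took 0.0744 to 0.115% of them. Between 341 and 5649 reads lay behind each member's value in a library, so all 10 members passed the filter on low values. VIM-AS1 itself had 2197, 2019 and 2763 normalized reads in the VIM-AS1 overexpression libraries, against 8.63, 1.22 and 5.53 in the control libraries, in the direction of the labels. Of the markers of LNCaP, HOXB13 was present over the 6 libraries (401 to 807 normalized reads), and the defining markers KLK3 and FOLH1 were at or near 0 (at most 1.92 and 3.84), so the cells are called here the libraries labelled LNCaP. The summed level of 5 measured fibroblast markers was 974 to 1426 in the VIM-AS1 libraries and 1660 to 1863 in the control libraries, with COL1A2 and LUM at or near 0. Mitochondrial genes took 5.57 to 7.06% of reads in the VIM-AS1 libraries and 8.73 to 14.3% in the control libraries. The part of these differences in the results below was not tested.

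In both groups the third library differed from its fellows in the same way, and this shift followed the GC content of transcripts (Spearman rho -0.832 across 13168 genes, a description). Each difference was therefore fitted by limma on log2(normalized reads + 1) over 20927 genes in 2 ways, without and with a term for the third libraries, and is called here where the fit with that batch term gave a Benjamini-Hochberg adjusted p under 0.05. The term was chosen from these data, so its p-values may be too small. Libraries of equal replicate number were taken as pairs from the correlation of their deviations. For the first and second libraries that correlation did not settle the pairing. VIM-AS1 replicate 1 correlated more with control replicate 2 (0.418) than with control replicate 1 (0.319). A fit with a block for the number is given beside members and lists whose calls it changes, and its calls rest on that pairing.

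SNHG7 was 0.509 times as abundant in the VIM-AS1 libraries as in the control libraries and was the member with the largest difference. SNHG15 was the member that differed most in the other direction, at 1.34 times its control level. With the batch term these 2 passed the threshold, 1 lower and 1 higher, which is 20% of the members beside 19.4% of all tested genes (11.5% higher and 7.94% lower), so the share of members called was near the background. Without the batch term limma called 0 members, beside 0.0239% of all genes. In that fit 1 of 10 members, SNHG7, had an unadjusted p under 0.05, beside 13.6% of all genes. On the recovered reads without a batch term edgeR called 0 members, beside 0.0204% of genes, and DESeq2 called 1 as lower, SNHG7, beside 1.69% of genes (1.05% lower). With the batch term edgeR called SNHG15 as higher and SNHG7, SNHG3 and SNHG6 as lower, beside 26.9% of genes (12.8% lower). After a correction for GC content and length limma called SNHG7 as lower without the batch term, beside 10.7% of genes (3.39% lower), and with it SNHG7 as lower and SNHG15 and SNHG12 as higher, beside 22.4% of genes (15.6% higher). With the replicate block limma called 4 members, SNHG15 as higher and SNHG7, SNHG3 and SNHG6 as lower, beside 26.6% of all genes (15.8% higher and 10.8% lower). These same 4 members had groups that did not overlap, beside 19.8% of all genes (9.5% higher and 10.3% lower).

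The median log2 fold change of the 10 members was -0.12, against -0.02 over all tested genes. It was -0.41 between the libraries numbered 1, -0.02 between those numbered 2 and -0.04 between those numbered 3. By number the lower median lay mainly in the first pair, but the data did not settle the pairing of the first and second libraries. The median over the members was -0.038 without the first VIM-AS1 library and -0.096 without the first control library. After the GC and length correction it was -0.0069. In the first pair 7 members were lower in the VIM-AS1 library and 3 were higher. The summed level of the members was 13590, 15111 and 13502 normalized reads in the VIM-AS1 libraries, against 19633, 16883 and 14742 in the control libraries. Without SNHG7 the sums were 11427, 12822 and 11771 in the VIM-AS1 libraries and 14214, 12582 and 11946 in the control libraries, and the groups overlapped. As these are bulk samples, fewer cells of a type and less RNA per cell cannot be told apart.

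**Figure D1:**
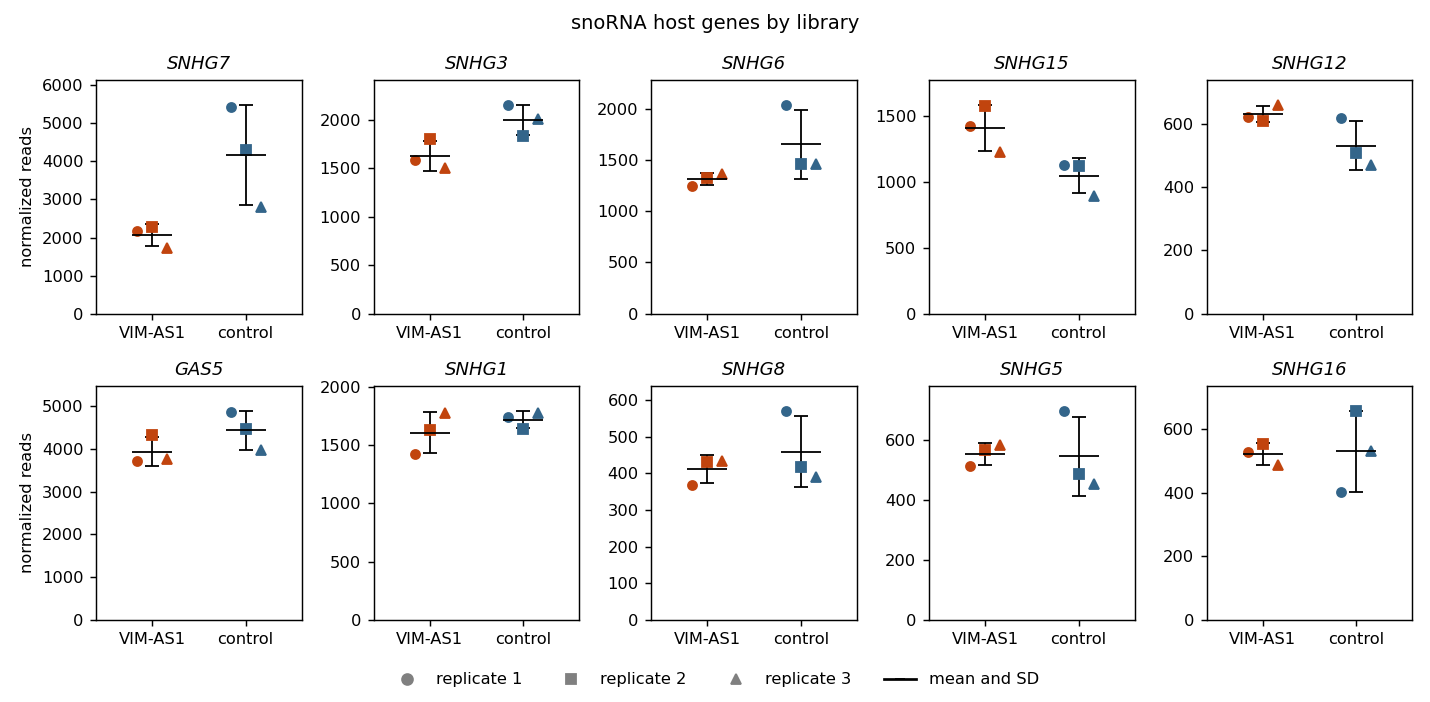
Normalized reads of each member in each library, on axes that start at 0, with VIM-AS1 overexpression libraries at the left and control libraries at the right of each panel; marker shape gives the replicate number, and bars give the mean and SD of 3 libraries. SNHG7, at 1731 to 2289 in the VIM-AS1 libraries and 2797 to 5419 in the control libraries, shows the widest gap between groups.

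Among the members that carry H/ACA snoRNAs, SNHG7 hosts SNORA17A and SNORA17B on the minus strand of chromosome 9, at chr9:136721366-136728184 of GRCh38. The host is a frequent subject of tumour cell studies. SNORA17A is shown here because SNHG7 is the member that fell. The capitals mark the ACA box, which stands 3 bases from the 3′ end of an H/ACA snoRNA. The sequence is that of the GENCODE 29 transcript on GRCh38 (chr9:136726747-136726879, minus strand).
SNORA17A: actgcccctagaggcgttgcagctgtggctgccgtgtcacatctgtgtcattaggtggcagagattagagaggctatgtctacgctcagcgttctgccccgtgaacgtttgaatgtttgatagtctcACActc
Neither SNORA17 gene had a row of its own among the values analysed here.

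SNHG7 had 2163, 2289 and 1731 normalized reads in the VIM-AS1 libraries, against 5419, 4300.4 and 2797 in the control libraries. Every VIM-AS1 library was below every control library, and the control libraries spread more widely, from the third at the bottom to the first at the top. The means were 2061 ± 292 in the VIM-AS1 libraries and 4172 ± 1316 in the control libraries (SD, n = 3 each). SNHG7 fell by 0.98 on the log2 scale (SE 0.12, limma with the batch term, adjusted p 1.42e-05; without the term 0.154). By pair the log2 difference was -1.32, -0.91 and -0.69, in the same direction each time. SNHG7 has the most GC-rich longest transcript of the members, 65.9% against a median of 49.2% for tested genes, and the third library minus the mean of the others was -0.36 log2 units in the VIM-AS1 group and -0.79 in the control group. After removal of each library's trends with GC content and length, the log2 fold change was -0.79 and passed limma both with the batch term (adjusted p 5.37e-05) and without it (adjusted p 0.00356). From the first and second libraries alone it was -1.12 (limma, adjusted p 0.0288). Within the members, SNHG7 took 15.9, 15.2 and 12.8% of member reads in the VIM-AS1 libraries, against 27.6, 25.5 and 19.0% in the control libraries.

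SNHG15 hosts a single snoRNA, SNORA9, and its spliced RNA is known as a short-lived transcript that builds up when cells are stressed. The gene lies on the minus strand at chr7:44983023-44986961. SNORA9, from the member that rose, was read from the same transcript set (chr7:44985378-44985510, minus strand), again with the ACA box in capitals.
SNORA9: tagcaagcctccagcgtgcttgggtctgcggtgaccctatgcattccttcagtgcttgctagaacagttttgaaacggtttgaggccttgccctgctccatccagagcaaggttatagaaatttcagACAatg
SNHG15 had 1418, 1575 and 1224 normalized reads in the VIM-AS1 libraries, against 1129, 1117 and 891 in the control libraries. The groups did not overlap, although the lowest VIM-AS1 library and the highest control library were close. The means were 1406 ± 176 in the VIM-AS1 libraries and 1046 ± 134 in the control libraries (SD, n = 3 each). The log2 fold change was 0.43 (SE 0.10, limma with the batch term, adjusted p 0.00517; without the term 0.403). By pair the log2 difference was 0.33, 0.50 and 0.46. The call was lost in the batch fit without VIM-AS1 replicate 2 (adjusted p 0.0537), without VIM-AS1 replicate 3 (0.127) or without control replicate 3 (0.115), with a log2 fold change from 0.39 to 0.41 in these fits. SNHG15 took 10.4, 10.4 and 9.06% of member reads in the VIM-AS1 libraries, against 5.75, 6.61 and 6.04% in the control libraries.

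SNHG3 hosts SNORA73A and SNORA73B, the U17 snoRNAs, which act in cleavage of the ribosomal RNA precursor and not as modification guides. The gene is on the plus strand at chr1:28505980-28510892. SNORA73B is shown because it has a measured row of its own (chr1:28508559-28508762, plus strand, GENCODE 29, ACA box in capitals).
SNORA73B: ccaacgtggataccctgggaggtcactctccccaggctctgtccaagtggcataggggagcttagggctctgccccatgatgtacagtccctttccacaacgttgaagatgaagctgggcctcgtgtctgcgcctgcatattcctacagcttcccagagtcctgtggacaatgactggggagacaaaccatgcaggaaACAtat
SNHG3 had 1589.8, 1799 and 1500.2 normalized reads in the VIM-AS1 libraries, against 2149.6, 1837 and 2013 in the control libraries. The groups did not overlap, but the second library of each group differed by 0.03 on the log2 scale. The means were 1629.6 ± 153 in the VIM-AS1 libraries and 2000.1 ± 157 in the control libraries (SD, n = 3 each). The log2 fold change of SNHG3 was -0.30 (SE 0.11) and did not pass limma with the batch term (adjusted p 0.0569). SNHG3 passed with the replicate block (adjusted p 0.0104), and with the batch term when the second control library was left out (log2 fold change -0.38, adjusted p 0.0222).

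SNHG12 carries 3 H/ACA snoRNAs and 1 C/D snoRNA on the minus strand at chr1:28578538-28583132. It had 623, 610.4 and 660.0 normalized reads in the VIM-AS1 libraries, against 617, 507 and 469 in the control libraries. The first control library lay within the range of the VIM-AS1 libraries. The log2 fold change was 0.26 (SE 0.12, limma with the batch term, adjusted p 0.151), and its size by pair was 0.01, 0.27 and 0.49. After the GC and length correction SNHG12 had a log2 fold change of 0.38 and passed limma with the batch term (adjusted p 0.0187), as it did without the first control library (0.37, adjusted p 0.0166). Its share of member reads was 4.58, 4.04 and 4.89% in the VIM-AS1 libraries and 3.14, 3.003 and 3.18% in the control libraries.

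SNHG8, host of SNORA24 at chr4:118278709-118279823 on the plus strand, had 369, 432 and 435 normalized reads in the VIM-AS1 libraries, against 571, 417 and 390.2 in the control libraries. The first control library was above all others and the remaining values overlapped. Its log2 fold change of -0.14 (SE 0.14, limma with the batch term, adjusted p 0.545) became 0.07 after the GC and length correction.

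**Figure D2:**
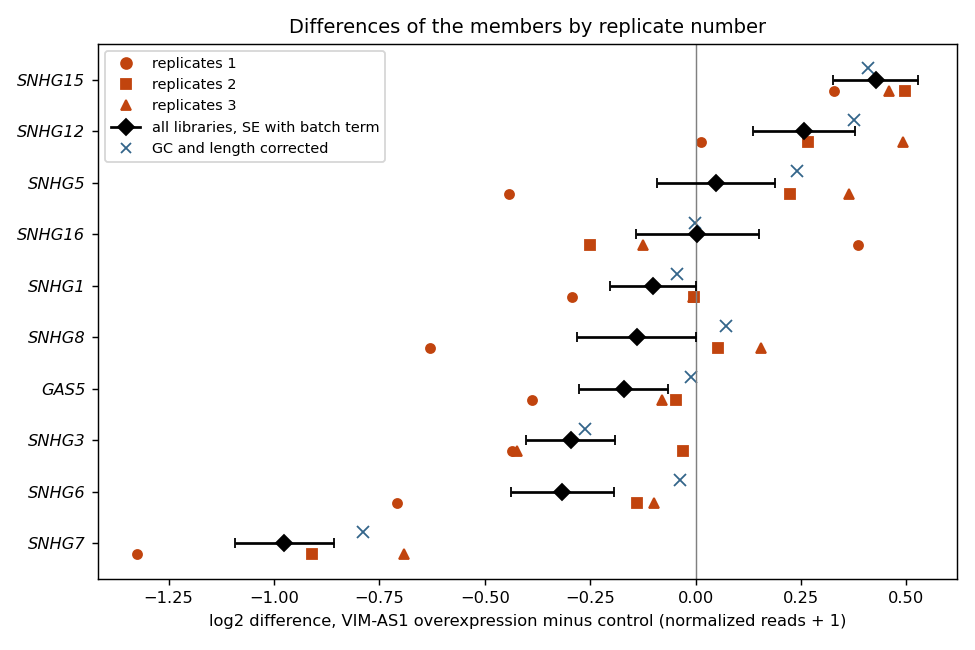
Log2 difference of each member, VIM-AS1 overexpression minus control; orange symbols give the 3 pairs of equal replicate number, black diamonds the difference over all libraries with its SE from the batch fit, and blue crosses the difference after the GC and length correction. SNHG7 lies at -0.98 and SNHG15 at 0.43, with all 3 pairs on 1 side of 0, as they also are for GAS5, SNHG1, SNHG3, SNHG6 and SNHG12.

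Among the hosts of C/D snoRNAs, GAS5 carries the most guides, with 11 RefSeq snoRNAs within the gene at chr1:173863900-173868882 on the minus strand. GAS5 was found as a transcript that builds up in growth-arrested cells, and its RNA can bind the DNA-binding domain of the glucocorticoid receptor and related steroid receptors. It had 3721, 4327 and 3752 normalized reads in the VIM-AS1 libraries, against 4870.0, 4465 and 3963 in the control libraries. The second VIM-AS1 library was above the third control library, so the groups overlapped. Means were 3933 ± 341 in the VIM-AS1 libraries and 4433 ± 455 in the control libraries (SD, n = 3 each), and the log2 fold change of -0.17 (SE 0.11) did not pass limma with the batch term (adjusted p 0.295). After the GC and length correction it was -0.012. GAS5 took 27.4, 28.6 and 27.8% of member reads in the VIM-AS1 libraries, against 24.8, 26.5 and 26.9% in the control libraries.

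SNHG1, the U22 host gene, lies on the minus strand at chr11:62851988-62855914. Its introns hold 9 annotated RefSeq snoRNAs, of which SNORD27 shows the C/D form, with the C box (TGATGA) and D box (CTGA) in capitals (chr11:62855012-62855083, minus strand, GENCODE 29).
SNORD27: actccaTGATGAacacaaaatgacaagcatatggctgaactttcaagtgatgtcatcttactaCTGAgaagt
SNHG1 had 1420.2, 1630.3 and 1770.3 normalized reads in the VIM-AS1 libraries, against 1739, 1633 and 1779 in the control libraries. The first VIM-AS1 library was the lowest of the 6, and by pair the log2 difference was -0.29, -0.0027 and -0.0068. Its log2 fold change was -0.10 (SE 0.10, limma with the batch term, adjusted p 0.553).

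SNHG6, the U87 host gene on the minus strand of chromosome 8, had 1246, 1328 and 1360.0 normalized reads in the VIM-AS1 libraries, against 2038, 1462 and 1457 in the control libraries. The groups did not overlap, and the first control library was far above the second and the third. The means were 1311 ± 58.5 in the VIM-AS1 libraries and 1653 ± 334 in the control libraries (SD, n = 3 each). Its log2 fold change of -0.32 (SE 0.12) did not pass limma with the batch term (adjusted p 0.0782) and passed with the replicate block (adjusted p 0.0154) and, with the batch term, without the second control library (-0.42, adjusted p 0.0306). After the GC and length correction it was -0.04 (limma with the batch term, adjusted p 0.857), and without the first control library it was -0.15 (adjusted p 0.328).

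SNHG5 hosts SNORD50A and SNORD50B, the U50 snoRNAs, on the minus strand at chr6:85660950-85678748. Its level was 513, 568 and 583 normalized reads in the VIM-AS1 libraries, against 697, 486 and 453 in the control libraries. The VIM-AS1 libraries lay inside the range of the control libraries. SNHG5 had a log2 fold change of 0.05 (SE 0.14, limma with the batch term, adjusted p 0.855). SNHG16 hosts the 3 snoRNAs of the SNORD1 family on the plus strand at chr17:76557766-76565348. It had 527, 553 and 486 normalized reads in the VIM-AS1 libraries, against 403, 657 and 530.0 in the control libraries. Here too the VIM-AS1 libraries lay inside the range of the control libraries, and the log2 fold change was 0.0039 (SE 0.15, adjusted p 0.990). The sign of SNHG5 and of SNHG16 changed with library size scaling and with edgeR, so no direction is given for either.

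Levels of different members were compared per kb of annotated exon, the union of all exons of a gene, which for genes with many annotated transcripts is longer than any spliced RNA. On this scale SNHG6 and GAS5 were the highest, at 1052 ± 46.9 and 1083 ± 93.9 normalized reads per kb in the VIM-AS1 libraries, and 1325 ± 268 and 1221 ± 125 in the control libraries (SD, n = 3 each). SNHG7 stood next in both groups, at 474 ± 67.3 per kb in the VIM-AS1 libraries and 960 ± 303 in the control libraries. In the VIM-AS1 libraries it was therefore near SNHG8 (446 ± 40.5), SNHG1 (428 ± 46.9), SNHG3 (399 ± 37.5) and SNHG15 (385 ± 48.3), and each of these 5 lay within 1 SD of its neighbour. In the control libraries SNHG7 overlapped GAS5 in its spread and was above SNHG8 (497 ± 106), SNHG3 (489 ± 38.3) and SNHG1 (457 ± 19.998 per kb), which did not differ beyond their spread, while SNHG15 was lower (287 ± 36.7). SNHG5 followed at 198 ± 13.2 per kb in the VIM-AS1 libraries and 194 ± 47.2 in the control libraries. SNHG12 (148 ± 6.06 in the VIM-AS1 libraries, 124 ± 18.0 in the control libraries) and SNHG16 (97.3 ± 6.25 in the VIM-AS1 libraries, 98.9 ± 23.7 in the control libraries) were the lowest per kb.

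**Figure D3:**
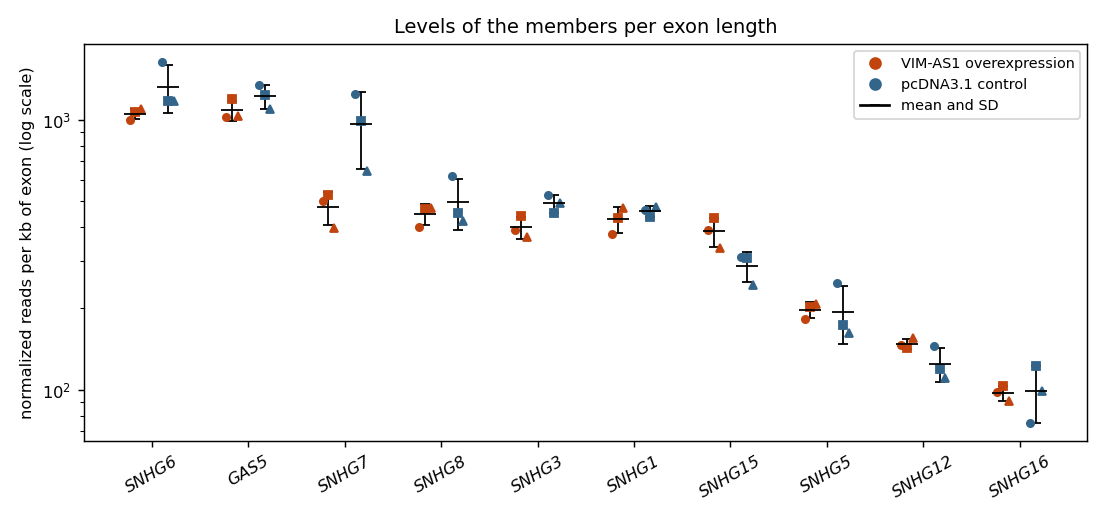
Normalized reads per kb of annotated exon of each member on a log axis, ordered by the control mean, with VIM-AS1 overexpression libraries (orange) to the left of control libraries (blue); bars give the mean and SD of 3 libraries. SNHG7 stands at 474 per kb in the VIM-AS1 libraries, near SNHG8 and SNHG1, and at 960 in the control libraries, nearer to GAS5.

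Promoter windows were read for 8 members from RefSeq sequence on GRCh38.p14, from 40 bases before to 50 bases after the RefSeq start, and SNHG6 and SNHG15 were not matched. Shown are the member that fell, the pair of members with a pyrimidine tract at the start, and GAS5, with the letters TATAA before the start and the first run of C and T near the start, from its first C, in capitals. The windows are chr9:136728135-136728224 for SNHG7, chr6:85678684-85678773 for SNHG5, chr1:28581824-28581913 for SNHG12 and chr1:173868996-173869085 for GAS5, all on the minus strand.
SNHG7: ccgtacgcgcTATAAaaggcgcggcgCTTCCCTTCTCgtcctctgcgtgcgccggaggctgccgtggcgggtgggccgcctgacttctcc
SNHG5: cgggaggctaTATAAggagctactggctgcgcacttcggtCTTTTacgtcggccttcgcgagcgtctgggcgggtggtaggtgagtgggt
SNHG12: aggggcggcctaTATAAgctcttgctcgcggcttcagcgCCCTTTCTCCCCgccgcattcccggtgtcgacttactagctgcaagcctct
GAS5: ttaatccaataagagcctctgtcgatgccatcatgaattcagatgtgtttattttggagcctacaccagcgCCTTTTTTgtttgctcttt
TATAA in the 40 bases before the start, read in the direction of transcription, was found in 4 of 8 members (SNHG5, SNHG7, SNHG8 and SNHG12), against 4.34% of 35116 promoters. It was found in 2 of 16 other noncoding hosts (12.5%) and 1 of 18 ribosomal protein hosts (5.56%). Its reverse complement TTATA was found in 0 of 8 members, against 2.23% of all promoters. A C at the first base of the RefSeq transcript followed by at least 4 further C or T was found in 2 of 8 members, SNHG5 and SNHG12. The same was found in 4.07% of all promoters, 5 of 16 other noncoding hosts (31.2%) and 11 of 18 ribosomal protein genes that host snoRNAs (61.1%). A C anywhere from 10 bases before to 35 after the start, followed by at least 4 further C or T, was found in 7 of 8 members, all but SNHG1, against 50.7% of all promoters. This trait was not particular to the members, as 13 of 16 other noncoding hosts (81.2%) and 17 of 18 ribosomal protein hosts (94.4%) had it. In SNHG7 the whole run of 11 bases begins 14 bases before the RefSeq start, and in GAS5 the run of 8 begins at base 32 after it. In SNHG12 the marked run of 12 begins at base -1 relative to the RefSeq start and continues through it. The GAS5 window lies wholly upstream of the GENCODE gene, whose first base on the minus strand is chr1:173868882. The RefSeq and GENCODE starts of GAS5 therefore differ. Those of SNHG5 and SNHG12 differ too, as their RefSeq starts lie inside GENCODE genes that begin at chr6:85678748 and chr1:28583132 on the minus strand. Tracts at the GENCODE starts of these members were not searched. CACGTG, the E-box letters, which read the same on both strands, were searched in the 300 bases from 250 before to 50 after the start and found in 1 of 8 members, against 7.26% of all promoters. The members with TATAA had log2 fold changes of -0.98 (SNHG7), -0.14 (SNHG8), 0.05 (SNHG5) and 0.26 (SNHG12). The members with a tract at the first RefSeq base were SNHG5 and SNHG12.

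Several members share exon bases with a neighbouring gene, and since how strand was treated in counting is not given in the sources used here, reads in the shared bases cannot be assigned. RCC1 encodes the nucleotide exchange factor of the Ran GTPase. The RCC1 gene (chr1:28505943-28539300) is on the same strand as SNHG3 and contains the whole span of SNHG3. They share 242 bases of exon, 5.92% of the SNHG3 exons, which no strand setting could assign to either gene. RCC1 had 4421 ± 502 normalized reads in the VIM-AS1 libraries and 2686 ± 375 in the control libraries (SD, n = 3 each), and rose by 0.72 on the log2 scale (SE 0.10, limma with the batch term, adjusted p 5.32e-05; without the term 0.184). The log2 ratio of RCC1 to SNHG3 was 1.55, 1.41 and 1.36 in the VIM-AS1 libraries, against 0.42, 0.67 and 0.16 in the control libraries. The ratio was higher in every VIM-AS1 library, by 1.02 on average (exact two-sided permutation test, p = 0.1, the smallest that 3 against 3 libraries allow). SLC3A2, a subunit of amino acid transporters, starts 187 bases from SNHG1 on the other strand with no shared exon. It had 13024 ± 2932 normalized reads in the VIM-AS1 libraries and 10492 ± 2594 in the control libraries (SD, n = 3 each). Its log2 fold change of 0.32 did not pass limma with the batch term (adjusted p 0.0766) and passed with the replicate block (adjusted p 0.00456), and its log2 difference by pair was 0.37, 0.26 and 0.32. The log2 ratio of SLC3A2 to SNHG1 was 3.27, 3.26 and 2.47 in the VIM-AS1 libraries, against 2.60, 2.998 and 2.14 in the control libraries. The groups overlapped (exact two-sided permutation test, which ignores the pairs, p = 0.3), while the ratio was higher in the VIM-AS1 library of each pair. SNHG7 shares 1094 bases (25.2% of its exons) with FAM69B on the other strand. FAM69B had 80.1, 111.7 and 65.5 normalized reads in the VIM-AS1 libraries, against 52.8, 78.2 and 48.97 in the control libraries (limma with the batch term, adjusted p 0.142). SNHG6 shares 365 bases (29.3%) with MCMDC2 and SNHG16 shares 1639 bases (30.6%) with AC015802.6, both on the other strand and both with means of at most 16.5 normalized reads in either group.

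**Figure D4:**
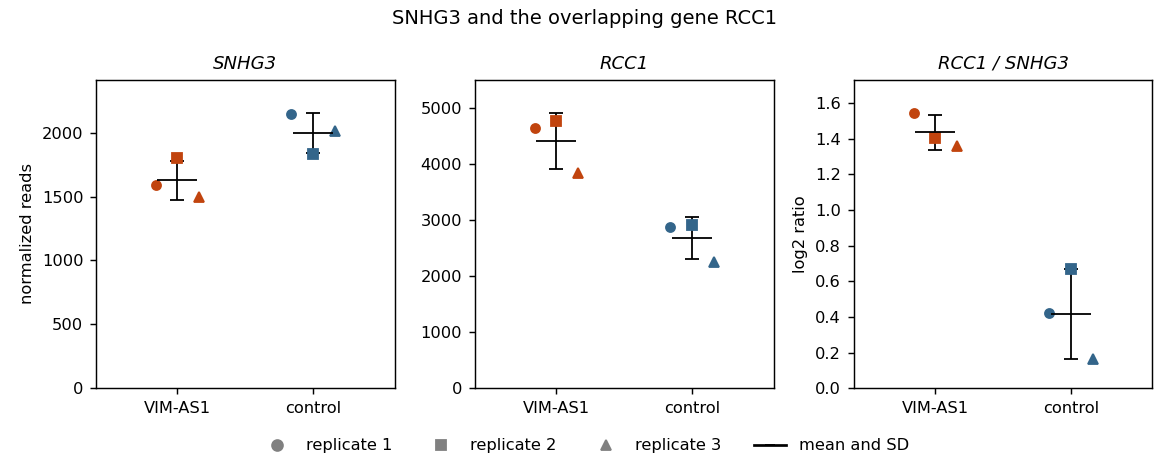
Normalized reads of SNHG3 and of RCC1, and the log2 ratio of RCC1 to SNHG3, in VIM-AS1 overexpression libraries (left in each panel) and control libraries (right); marker shape gives the replicate number and bars the mean and SD of 3 libraries. The ratio is 1.36 to 1.55 in the VIM-AS1 libraries and 0.16 to 0.67 in the control libraries.

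Of the 36 RefSeq snoRNAs within the members, 4 had rows of their own. SNORA73B of SNHG3 had 81, 81 and 84 reads in the VIM-AS1 libraries, against 65, 30 and 97 in the control libraries, and its log2 fold change of 0.57 did not pass limma with the batch term (adjusted p 0.113). SNORD99 of SNHG12 had 6, 6 and 7 reads in the VIM-AS1 libraries, against 5, 12 and 23 in the control libraries. SNORD81 of GAS5 and SNORD1B of SNHG16 had at most 7 reads in any library. Reads in a snoRNA row can also come from unspliced host RNA, and the yield of mature snoRNAs was not measured by these libraries.

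Levels of the members varied in different ways across the 6 libraries. As a description with no test, Pearson's r of log2 levels over the 6 libraries was highest between SNHG6 and SNHG8 (0.897) and between GAS5 and SNHG7 (0.879), and lowest between SNHG5 and SNHG16 (-0.78). The mean centred log2 level of the members was -0.12, 0.02 and -0.09 in the VIM-AS1 libraries, against 0.23, 0.05 and -0.10 in the control libraries, so the first control library stood above the rest. Among 9748 other genes with a mean of at least 100 normalized reads, those whose levels were most like this mean profile were TUSC1 (r 0.98), NDUFC2, a subunit of respiratory complex I (0.98), MRPS21, a protein of the mitochondrial ribosome (0.98), CYTOR (0.97) and GCNT3 (0.97), over the same 6 libraries.

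Other noncoding hosts of snoRNAs were set beside the members: of 17 tested genes 0 were higher and 3 were lower with the batch term, with a median log2 fold change of -0.13, against -0.12 for the members and -0.02 for all genes. The share called was 17.65%, near the 19.4% of all tested genes (11.5% higher and 7.94% lower). With the replicate block it was 35.29%, beside 26.6% of all genes. The 3 that fell by limma with the batch term were SNHG10 (97.5 ± 17.5 in the VIM-AS1 libraries, 162 ± 14.8 in the control libraries, log2 fold change -0.74, adjusted p 0.0056), EPB41L4A-AS1 (-0.55, adjusted p 0.000809) and SNHG4 (-0.52, adjusted p 0.00176). The replicate block gave 2 higher and 4 lower, and no call was left without the third VIM-AS1 or the third control library, where the fit rests on 4 libraries and the log2 fold changes were -0.61 (SNHG10), -0.54 (EPB41L4A-AS1) and -0.47 (SNHG4). Of 22 ribosomal protein genes that host snoRNAs, which are TOP messages like many members, 0 passed with the batch term (1 higher and 1 lower with the replicate block), and their median was -0.02. Of 20 other protein-coding hosts 11 rose and 0 fell with the batch term (55%, beside 19.4% of all genes), and 12 and 0 with the replicate block (60%, beside 26.6%). Their median was 0.46, and HSPA8 (a constitutive HSP70 chaperone, 1.03) and DKC1 (the pseudouridine synthase of H/ACA particles, 0.76) were among those that rose. PPAN, a ribosome assembly factor, passed too (0.85, adjusted p 0.023), but its groups overlapped, its first pair was at -0.13, and without the third VIM-AS1 or the third control library it was 0.50 (adjusted p 0.499 and 0.448). It was 1.30 without the first control library, and its call was lost with library size scaling, edgeR and DESeq2 (adjusted p 0.144, 0.0688 and 0.0573), and without the first VIM-AS1 or the second control library (0.0503 and 0.147). Without the third libraries 2 of these 20 were higher, beside 179 of 20927 tested genes. When the third VIM-AS1 or the third control library alone was left out, 2 and 3 were higher, beside 143 and 366 of all genes. Limma without the batch term called 0 of these 20 hosts, with an adjusted p of 0.115 for HSPA8 and 0.132 for DKC1. It also called 0 of the 17 other noncoding hosts and 0 of the 22 ribosomal protein hosts, beside 0.0239% of all genes.

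**Figure D5:**
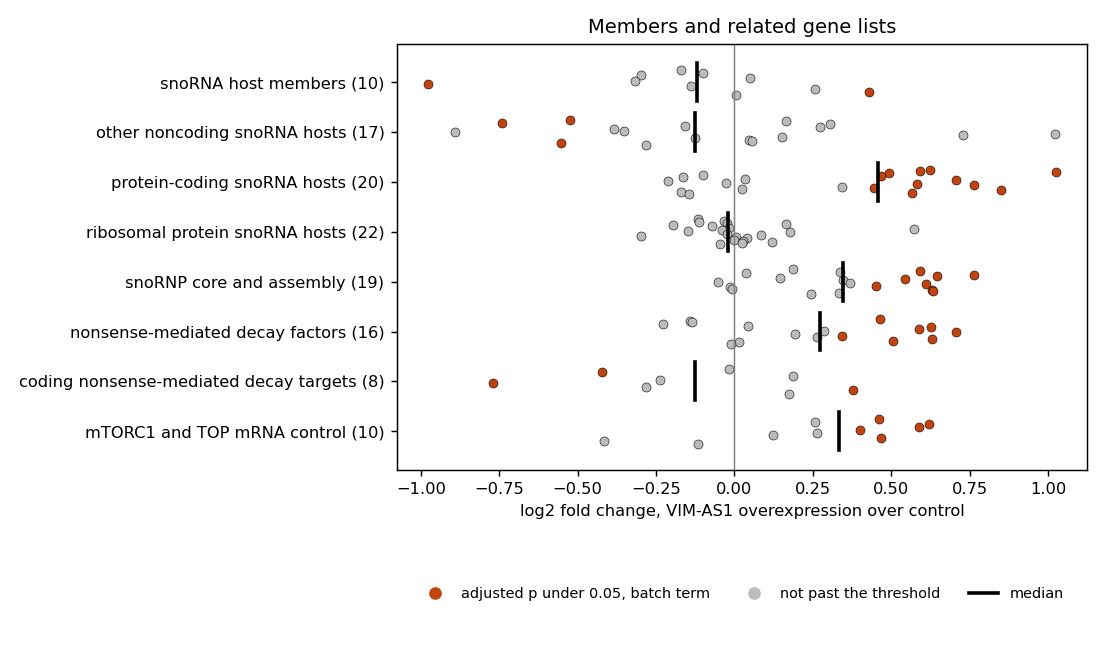
Log2 fold change, VIM-AS1 overexpression over control, of every tested gene of 8 lists, with the number tested in brackets; filled orange points passed an adjusted p of 0.05 in the batch fit, grey points did not, and vertical bars give list medians. The members spread from -0.98 to 0.43 around a median of -0.12, while protein-coding hosts have a median of 0.46.

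Proteins that bind snoRNAs, assemble their particles or degrade host RNAs were read as the setting of the members. Of 19 genes for core proteins and assembly factors of snoRNA particles, 8 rose and 0 fell with the batch term, and 10 and 0 with the replicate block (median log2 fold change 0.35). Among them were DKC1, the H/ACA core protein NHP2 (0.65, with groups that overlapped, and 0.42 without the third libraries) and the H/ACA assembly factor NAF1 (0.63). Of 16 nonsense-mediated decay factors, 7 rose and 0 fell with the batch term, and 8 and 0 with the block (median 0.27), among them SMG8 (0.71), RBM8A (0.63) and SMG5 (0.63). Of 8 coding messages that decay limits, 1 rose and 2 fell with the batch term, and 1 and 4 with the block (median -0.13), where TBL2 was at 0.38 and GADD45B at -0.42. Of 10 genes for mTORC1 and TOP message control, 5 rose and 0 fell with the batch term, and 6 and 1 with the block (median 0.33). Among those that rose were MTOR (0.62), RPTOR (0.59, with groups that overlapped) and EIF4EBP2 (0.47). The gene that was lower with the block was RPS6KB1, an S6 kinase (-0.41, adjusted p 0.0408). With the batch term the shares called were 42.1% (particle list), 43.75% (decay factors), 37.5% (coding decay targets) and 50% (mTORC1 list). Of all tested genes 19.4% were called in that fit (11.5% higher and 7.94% lower). With the block the shares were 52.6, 50, 62.5 and 70%, beside 26.6% of all genes. None of the genes of these lists passed limma without the batch term. Without the third libraries 1 gene of the particle list, 0 decay factors and 0 of the mTORC1 list were higher, beside 179 of 20927 tested genes. Leaving out the third VIM-AS1 library gave 1, 0 and 0 higher in these 3 lists, beside 143 of all genes. Leaving out the third control library gave 2, 1 and 1, beside 366 of all genes. A pair of fibroblast markers, COL1A1 and DCN, fell in the same fit (log2 fold changes -0.46, adjusted p 0.00729, and -1.30, adjusted p 1.55e-05), and the endothelial marker VWF rose (75.7 ± 21.9 normalized reads in the VIM-AS1 libraries, 35.5 ± 13.4 in the control libraries, SD, n = 3 each, log2 fold change 1.10, limma adjusted p 0.00436). The other endothelial markers measured did not rise. CDH5 was at 12.59 normalized reads in the VIM-AS1 libraries and 12.57 in the control libraries (means, limma with the batch term, adjusted p 0.890). PECAM1 had reads only in the third control library. The part of these markers in the counts was not tested.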

How the data were processed

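RNA was sequenced from 6 libraries, 3 per group. Reads were processed with fastp, HISAT2 and featureCounts on hg38, per the submitters' processing notes, without versions. Annotation, strand setting and normalization step are not given in the sources used here. Deposited values are a signal per gene: counts divided by 1 factor per library. In every library 100% of 25969 values were whole reads within 0.01 read, and the factors (0.819 to 1.27) equalled median-of-ratios size factors. They are called normalized reads, or reads once multiplied back. Within-group pairs differed by more than sampling noise (chi-square per degree of freedom 7.14 to 69.2). Intervals were not computed, and a count of 0 allows an expected count of up to 3 reads.

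Differences were fitted with limma 3.58.1 (R 4.3.3) on log2(value + 1), with an intensity trend, for 20927 genes with a mean of at least 1, two-sided, with Benjamini-Hochberg adjustment over all of them at a threshold of 0.05. The main fit had no further term, the batch fit had a term for the third libraries, and another a block for the replicate number. Pseudocounts make fold changes of low genes too small. Deviations of same-numbered libraries from their group means correlated at 0.319, 0.724 and 0.843 over 13175 genes, each above 0.1, so the numbers were taken as pairs from the data. VIM-AS1 replicate 1 correlated more with control replicate 2 (0.418), and VIM-AS1 replicate 2 with control replicate 1 was at 0.328, also above 0.1. The rule therefore could not tell which of the first and second libraries belong together. Alternatives were edgeR 4.0.16 and DESeq2 1.42.0 on recovered reads, TMM and library size scaling, no filter, a pseudocount of 0.1, a spline correction for GC content and length (5 degrees of freedom) and each library left out; leaving out the third libraries was added after seeing the data. The fits were also run on simulated counts with a fixed dispersion, whose only batch effect was the shift of the third libraries seen here. That setting matches the batch fit, so the run could not check the fit against other differences between libraries.

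Named were all members, VIM-AS1, up to 3 genes per list with the largest change in the batch fit and a mean of at least 100, the 5 genes most like the members' mean, and genes that overlap or adjoin a member. The members and lists were chosen with earlier results of these data known. Positions come from GENCODE 29 on GRCh38. Some marker genes and 1 snoRNA sequence are not reported here.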

Additional observations from a re-analysis of the deposited data

How the results depend on the processing

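Without the batch term, 3 genes were higher and 2 lower, as with TMM scaling and a pseudocount of 0.1, while other choices moved these counts: 15 and 13 with library size scaling, 5 and 12 with no filter, 2 and 1 with edgeR, 133 and 220 with DESeq2, 3315 and 2256 with the replicate block, 1530 and 710 after the GC and length correction, and 179 and 157 without the third libraries. Leaving out single libraries gave 2 to 10 higher and 0 to 31 lower. Members called without the term, 0 at first, were 1 higher and 3 lower with the replicate block, and 1 lower (SNHG7) with DESeq2, with the GC and length correction and without the third libraries. With the batch term, 2403 genes were higher and 1662 lower, and leaving out single libraries gave 143 to 2825 and 145 to 1668, lowest without VIM-AS1 replicate 3; without control replicate 3 there were 366 and 252, and without VIM-AS1 replicate 2 there were 1468 higher. Members called with the term were 2 higher after the GC and length correction and 3 lower with edgeR (SNHG3 adjusted p 0.0252, SNHG6 0.0392), and 0 to 2 higher and 1 to 3 lower with single libraries left out. SNHG7 was called in all 14 fits with the term.

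The sign turned for 3 members, none of them called by limma. SNHG5 was -0.012 with library size scaling, -0.014 with edgeR without the batch term and -0.0087 with it, -0.11 without the third libraries, and -0.072 to 0.24 without the term and -0.11 to 0.24 with it when single libraries were left out. SNHG8 was 0.072 after the GC and length correction, and -0.25 to 0.027 without the term and -0.29 to 0.032 with it when single libraries were left out. SNHG16 was -0.057 with library size scaling, -0.067 and -0.064 with edgeR, -0.021 and -0.022 with DESeq2, -0.0022 after the GC and length correction, and -0.18 to 0.17 and -0.22 to 0.19 when single libraries were left out. The cause was not tested, but a fit with the batch term that lacks the third library of a group rests on 4 libraries. The median of the members, -0.12 at first, ranged under the alternatives run from -0.18 without the third libraries to -0.0069 after the GC and length correction. These shifts were under 0.135, the pooled within-group SD over libraries of the members' median deviation. That SD describes single libraries and not a difference between groups, so it does not show that the median held. Little of the median was left after the GC and length correction. SE values near 0.14 limit what could be seen in SNHG5, SNHG8 and SNHG16.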
